A study of Mus musculus with 6 samples.

Results

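The major histocompatibility complex of the mouse was described from its DNA methylation. It was taken as start positions 33900000 to 37500000 of chromosome 17 (build mm10), within the 390208 rows of the deposited table in which all 6 libraries lie beside the same coordinates. This stretch of 3.6 Mb holds 3859 of the 813850 cytosine positions of the table, and 2718 of the 3859 had a value in all 6 libraries and are called complete positions here. The study profiled intestinal organoids of genotype Apc Min, in which one copy of Apc, an inhibitor of Wnt signalling, is truncated, by reduced representation bisulfite sequencing (RRBS), in which restriction fragments rich in CpG are sequenced after bisulfite has converted unmethylated cytosines. There were 3 libraries of organoids treated with DM-aKG, a name that the series title relates to α-ketoglutarate, and 3 libraries of control-treated organoids. All 6 carried Apc Min and were kept in organoid medium low in glutamine. The labels call the cells primary and the libraries biological replicates, and do not say whether they came from separate animals or cultures, so p-values measure the spread between these libraries. The dose, the time and the age of the animals are not stated in the labels.

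The complex is among the most gene-dense and polymorphic stretches of the mouse genome. Its class I molecules present peptides made inside the cell and its class II molecules present peptides taken up from outside. The class III part holds complement, tumour necrosis factor and many housekeeping genes. Epithelial cells of the gut carry class I molecules and can be induced to carry class II molecules by interferon. Methylation of a promoter's CpGs generally goes with silence of the gene, whereas methylation inside a gene is common in active genes. α-Ketoglutarate is a co-substrate of the TET enzymes, which oxidise 5-methylcytosine, and the comparison asks how methylation differs between treated and control organoids.

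Values between 1% and 39% do not occur in the table, so a 0 is either a call below 40% or an absent call, and it was left out as no value. The levels below are therefore those of positions at 40% or more. Depth is unknown, since the table has no coverage. Each level averages over the cells of a library and over both alleles, so a mixture of methylated and unmethylated cells cannot be told apart from a difference between alleles. Across the positions of the region, pairs of libraries correlated at 0.591 to 0.755 (Pearson), against 0.594 to 0.768 over the rest of chromosome 17. Control replicate 1 stood lowest of the 6 libraries in the mean level of the region and of the rest of the chromosome. Its part in the differences below was not tested as a cause. Among marker genes of cell types, 4 of 6 epithelial genes were measured, at 83.1% to 93.1% with DM-aKG and 83.6% to 95.1% in controls. The 2 of 6 immune genes measured had 76.6% to 85.7% with DM-aKG and 71.6% to 84.0% in controls. The 3 of 5 fibroblast genes had 66.2% to 85.8% with DM-aKG and 61.6% to 81.9% in controls. Dcn had 85.8% with DM-aKG and 79.3% in controls. Col3a1 had 66.2% with DM-aKG and 61.6% in controls, and Col1a1 had 80.2% with DM-aKG and 81.9% in controls. The 1 of 4 endothelial genes had 90.1% with DM-aKG and 90.01% in controls. Methylation levels over gene spans do not establish which cells a library held.

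Few promoters of the region can be read from these positions. Of the 229 promoters of region genes in RefSeq's table for GRCm38.p6 (each 300 bases, 250 before to 50 after the start), 12 (5.24%) held any listed position, against 787 of 18212 promoters (4.32%) of the usable rows. The letters CCGG, the site of MspI, the enzyme most such protocols cut with (the enzyme used here is not given), occurred in 138 of the 229 (60.3%) and in 53.4% of the 18212. CCGG reads the same on both strands and contains CG. Of the promoters with CCGG, 12 of 138 in the region (8.70%) and 7.95% in the usable rows held a listed position. With 10 or more CG in the window the share was 4.76% in the region and 5.29% in the usable rows. With fewer it was 21.2% in the region (7 of 33) and 15.2% in the usable rows. The table lists only positions at 40% or more in at least 1 library, so a promoter without one may be below that level or not covered.

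The 4 promoters with 3 or more complete positions are shown because they are where promoter levels can be followed base by base. The 250 bases before the start are printed 5′ to 3′ on the + strand, the strand of each gene, with capitals at the C or G of each CpG that the table lists. They lie at chr17:35194257-35194506 for Ltb, which encodes lymphotoxin beta, at chr17:35551878-35552127 for Cdsn, which encodes corneodesmosin, an adhesion protein of the outer skin, at chr17:35016329-35016578 for Vwa7, which encodes a von Willebrand factor A domain protein, and at chr17:35703827-35704076 for Gm4577, a predicted gene.
Ltb: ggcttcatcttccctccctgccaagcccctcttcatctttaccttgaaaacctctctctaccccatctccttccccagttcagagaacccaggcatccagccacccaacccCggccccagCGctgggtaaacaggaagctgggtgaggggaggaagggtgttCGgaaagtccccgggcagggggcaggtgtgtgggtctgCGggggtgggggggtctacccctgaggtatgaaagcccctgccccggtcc
Cdsn: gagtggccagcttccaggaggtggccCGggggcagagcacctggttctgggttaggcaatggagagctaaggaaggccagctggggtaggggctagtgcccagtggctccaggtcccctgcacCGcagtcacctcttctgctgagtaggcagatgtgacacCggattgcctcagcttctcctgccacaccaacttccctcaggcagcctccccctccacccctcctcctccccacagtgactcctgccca
Vwa7: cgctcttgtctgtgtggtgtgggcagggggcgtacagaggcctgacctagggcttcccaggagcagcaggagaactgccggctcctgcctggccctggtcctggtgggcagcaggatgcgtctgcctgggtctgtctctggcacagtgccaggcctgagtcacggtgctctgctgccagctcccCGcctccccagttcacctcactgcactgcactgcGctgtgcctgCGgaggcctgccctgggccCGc
Gm4577: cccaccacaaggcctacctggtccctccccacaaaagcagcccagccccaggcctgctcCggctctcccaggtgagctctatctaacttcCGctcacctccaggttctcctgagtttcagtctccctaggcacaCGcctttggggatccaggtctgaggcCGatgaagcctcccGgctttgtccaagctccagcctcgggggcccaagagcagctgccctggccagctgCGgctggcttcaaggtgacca

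The Ltb promoter had a stepped pattern that all 6 libraries shared. At 139 bases before the start the level was 54%, 57% and 65% with DM-aKG, against 57%, 55% and 68% in controls. At 88 bases before the start it was 97%, 98% and 96% with DM-aKG, against 99%, 94% and 98% in controls. At 129 bases it was 81%, 75% and 80% with DM-aKG, against 93%, 85% and 84% in controls. Closer to the start, at 49 bases, it was 60%, 63% and 50% with DM-aKG, against 45%, 57% and 85% in controls. A nearly fully methylated CpG thus lay between partly methylated ones. At 129 bases the treated libraries lay below all controls, and at the other positions the groups overlapped. Over its 6 complete positions the promoter averaged 78.5% ± 0.5 with DM-aKG and 81% ± 3.66 in controls (SD, n = 3 each).

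**Figure D1:**
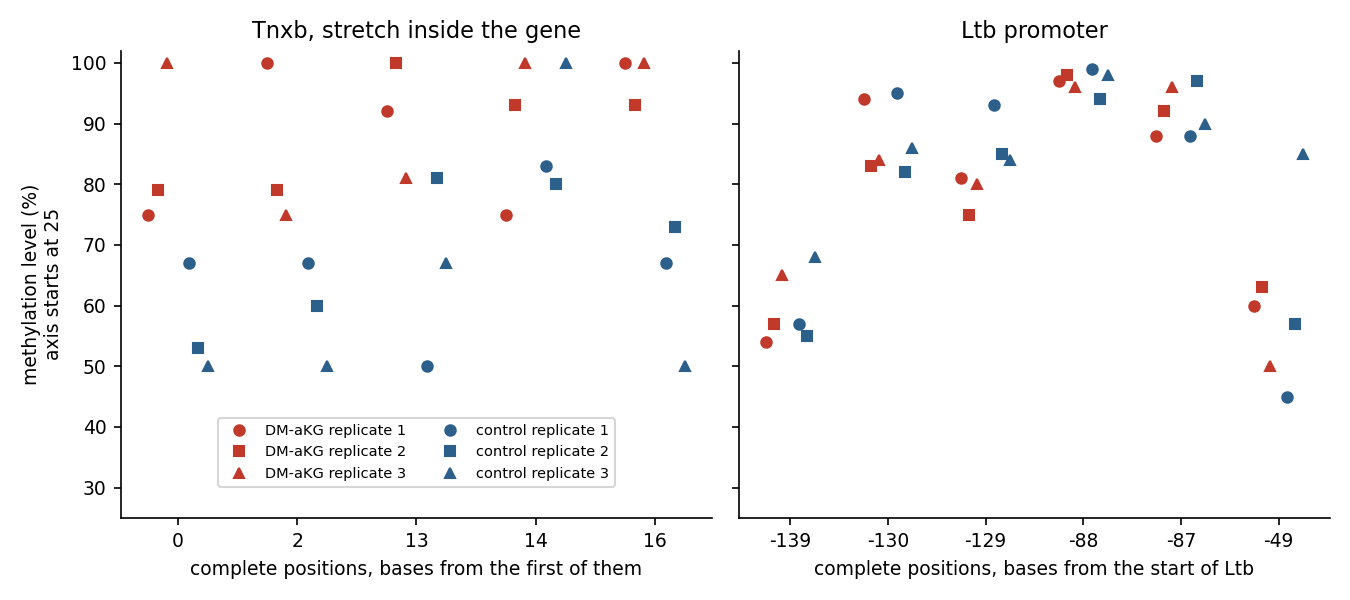
Methylation level (%, vertical axis, starting at 25) at each complete position of a 17-base run inside Tnxb (left, bases from the first of them) and of the Ltb promoter (right, bases from the start). Each symbol is 1 library, DM-aKG in red left of control in blue. In Tnxb the treated libraries are higher without overlap at 3 of the 5 positions, and in the Ltb promoter the groups overlap at 5 of the 6 positions.

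The Cdsn promoter was split in another way. It lies inside the annotated span of Cdsn (chr17:35543101-35557180), so its positions are also positions within the gene. At 127 and 126 bases before the start all 3 DM-aKG libraries had 100%, against 89%, 94% and 93% and then 100%, 86% and 75% in controls. At 224 bases before the start the level was 77%, 69% and 56% with DM-aKG, against 79%, 73% and 63% in controls. Over 4 complete positions the Cdsn promoter averaged 88.2% ± 6.00 with DM-aKG and 82.0% ± 4.88 in controls (SD, n = 3 each). The Vwa7 promoter lay lower, at 64.7% ± 10.11 with DM-aKG and 66.4% ± 9.77 in controls over 3 positions. The Gm4577 promoter had 78.3%, 80.5% and 50.8% with DM-aKG, against 90.0%, 75.0% and 74.5% in controls over 4 positions, and DM-aKG replicate 3 was the low library there. The Gm4577 promoter lies inside the span of Ddr1 (chr17:35681567-35704741). The listed positions of the Vwa7 promoter lie inside the span of Vwa7 (chr17:35016360-35026741). In all 4 promoters the groups overlapped.

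The region was densely sampled. It had 107 listed positions per 100 kb, against 37.0 in the rest of chromosome 17, and 222 per 100 kb in the class III part, 131 in the class II part and 64.02 in the class I part. The parts were cut at the starts of Notch4 (position 34564286) and H2-D1 (position 35263094), which left 873 positions in the class II part, 1554 in the class III part and 1432 in the class I part, of which 627, 1090 and 1001 were complete. These cuts do not fully separate the gene classes. The class I gene H2-K1 (start 33996012) and the pseudogene H2-K2 (start 33974659) lie in the class II part. Genes of other kinds, such as Olfr91, lie in the class I part. Gene spans held 90.7% of the positions in the class III part, 80.9% in the class II part and 63.6% in the class I part. Positions came in runs, with a median gap of 11 bases and 1409 neighbours 1 base apart. Neighbours 1 base apart can be the C and the G of 1 CpG, read on opposite strands, or the G of one CpG and the C of the next. The longest gap without a listed position was 206586 bases, in the class I part.

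Most positions along the complex were highly methylated. The median complete position stood at 92.4% over the 6 libraries, 538 of 2718 (19.8%) lay under 80% and 93 (3.42%) under 60%. The rest of chromosome 17 had a median of 92.5% with 20.4% of its complete positions under 80%. Averaged over the 6 libraries, the class II part was 0.710 points below the class III part (SD of the library differences 0.545, lower in 5 of 6 libraries), with an exact two-sided sign-flip p of 0.0625 and an adjusted p of 0.25 over 4 contrasts. The class I part differed by -0.317 points from the class III part (adjusted exact p = 0.375) and by 0.393 points from the class II part (adjusted exact p = 0.375). The region as a whole differed by 0.137 points from the rest of the chromosome (adjusted exact p = 0.625). The sign of each contrast between parts depends on how positions are averaged.

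Levels of 100 kb windows varied more between windows than between the libraries of a typical window. In 32 of 36 windows at least 10 complete positions could be averaged, and their levels had an SD of 2.29 points between windows, against a median SD of 1.41 points between the libraries of a window. The lowest window started at 36900000 with 82.2%, in the class I part where H2-M5 lies, and the next at 37000000 with 83.6%, where the GABA-B receptor gene Gabbr1 lies. The highest started at 36700000 with 92.3%, from 10 positions, and at 35500000 with 91.2%, from 114 positions. The lowest window, from 17 positions, and the highest thus stood close to each other toward the far end of the class I part. The window at 35500000 lay nearer the start of that part. In the window at 36700000 the SD between libraries was 2.745 points. The spread between libraries does not cover which positions a window holds, and that share of the dips and peaks was not tested.

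**Figure D2:**
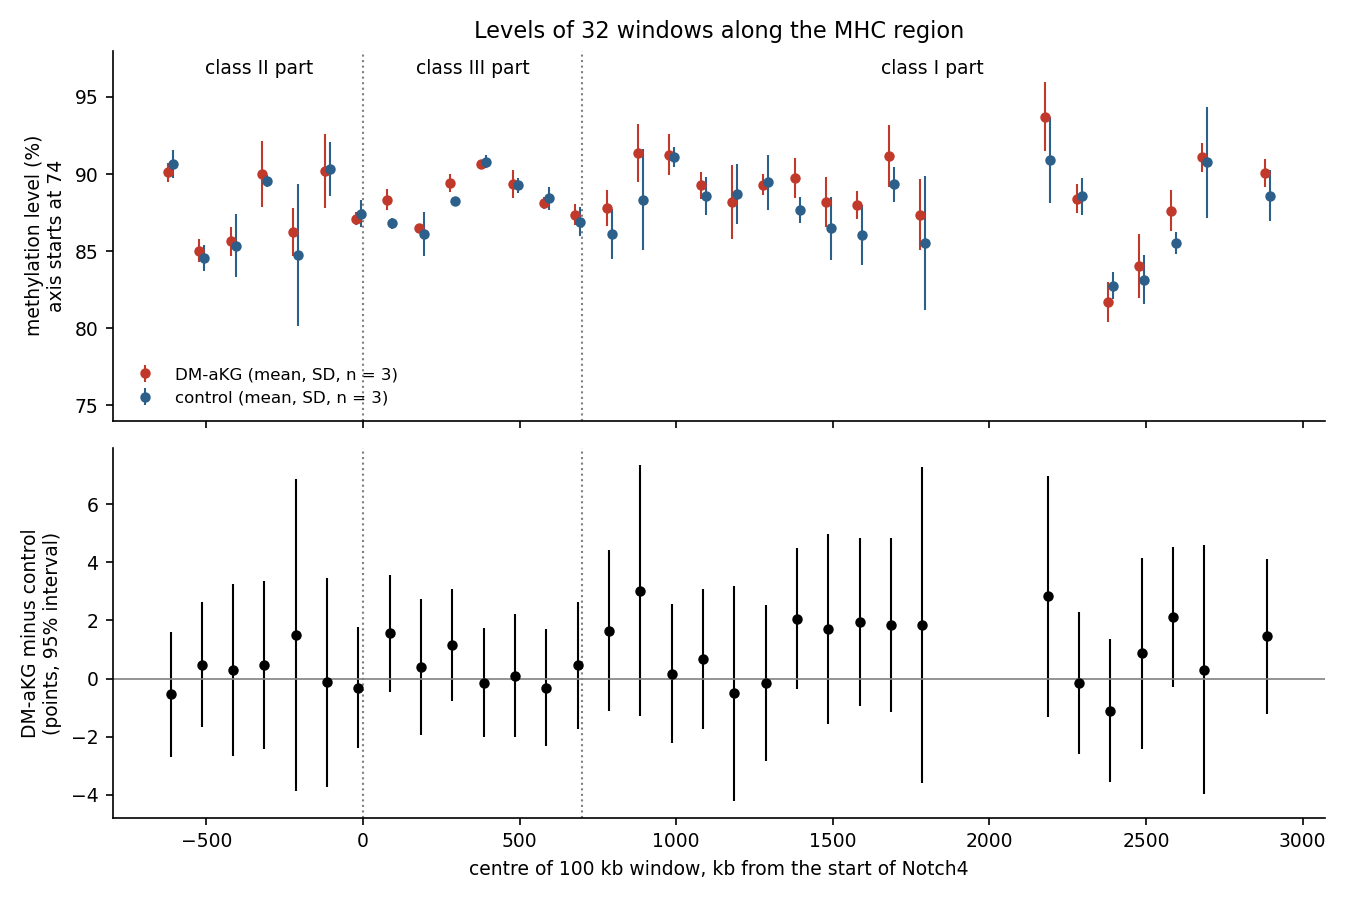
Mean methylation level (%, upper panel, axis starting at 74) and DM-aKG minus control difference (percentage points, lower panel) of the 32 measured 100 kb windows, against the distance of the window centre from the start of Notch4 (kb). Points are group means with SD over 3 libraries above, and differences with 95% intervals below; lines part the class II, III and I parts, and the differences run from -1.10 to 3.03 points.

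With DM-aKG the region averaged 88.4%, 88.3% and 88.7%, against 87.6%, 88.1% and 88.1% in controls. All 3 treated libraries lay above all 3 controls, with means of 88.5% ± 0.214 with DM-aKG and 88.0% ± 0.307 in controls (SD, n = 3 each). The difference was 0.549 points, which gave p = 0.1 in an exact two-sided permutation test, as low as 3 against 3 libraries can reach. Averaged over every position that a library had a value at, the difference was 0.172 points (exact p = 0.6).

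Of the 3 parts the class I part held the largest difference, close to the 1.07 points of the rest of chromosome 17. The class I part averaged 88.4%, 88.8% and 88.9% with DM-aKG, against 87.1%, 88.2% and 87.8% in controls. The difference was 0.989 points with groups that did not overlap (exact p = 0.1, adjusted p = 0.3 over 3 parts). It was 0.348 points (exact p = 0.4) over every position with a value, 2.03 points as a mean of 10 kb bins and -2.28 points (exact p = 0.1) with each 0 taken as a true level. The class III part averaged 88.7% ± 0.152 with DM-aKG and 88.3% ± 0.297 in controls (SD, n = 3 each), and its groups overlapped (exact p = 0.2, adjusted p = 0.3). The class II part averaged 87.9% ± 0.696 with DM-aKG and 87.7% ± 0.381 in controls (SD, n = 3 each; exact p = 0.9, adjusted p = 0.9). That the parts differ from each other in this respect was not tested. The class II difference was -0.236 points without DM-aKG replicate 3 and -0.0558 points without control replicate 1.

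**Figure D3:**
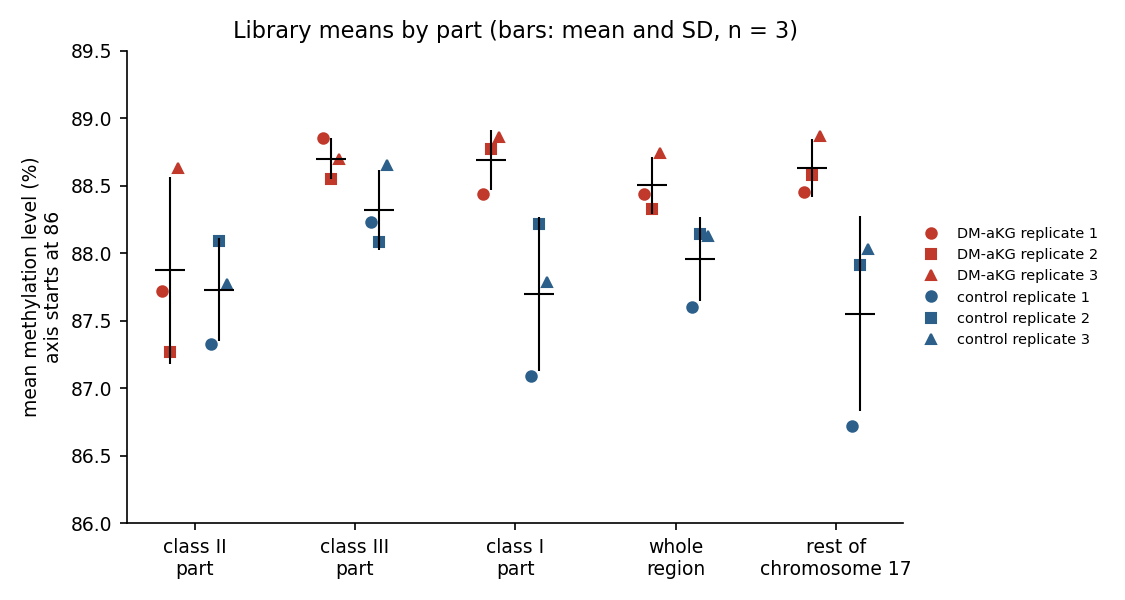
Mean methylation level (%, vertical axis) of each library in the region, its class II, class III and class I parts and the rest of chromosome 17. Each symbol is 1 library, DM-aKG in red left of control in blue, with bars for the group mean and SD on an axis starting at 86; in the class I part the DM-aKG libraries lie between 88.4% and 88.9% and the controls between 87.1% and 88.2%.

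The region was also set against its own chromosome. The rest of chromosome 17 averaged 88.6% ± 0.215 with DM-aKG and 87.6% ± 0.726 in controls (SD, n = 3 each), a difference of 1.07 points. The region minus the rest of the chromosome was -0.00854, -0.248 and -0.122 points with DM-aKG, against 0.881, 0.220 and 0.0963 points in controls. Those groups did not overlap, and the difference between them was -0.525 points (exact p = 0.1, the smallest possible), or -0.284 points without control replicate 1. Over every position with a value it was -0.146 points (exact p = 0.2).

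Over the region as a whole, the treated libraries lay above the controls far from gene starts, and near starts the groups overlapped. These distance classes were chosen after the values were seen, and because the table of starts is not complete the distances are upper limits. At 10000 bases or more from a start, 870 complete positions averaged 87.2%, 87.8% and 88.1% with DM-aKG, against 85.9%, 86.4% and 86.6% in controls. The groups did not overlap there, and the difference was 1.42 points (exact p = 0.1). By part, they stayed apart only in the class I part, with 1.86 points (exact p = 0.1). They overlapped in the class II part (1.43 points, exact p = 0.2) and in the class III part (0.979 points, exact p = 0.2). The distance classes were not computed with each 0 taken as a true level. Within 5000 bases of a start, 1283 positions averaged 88.5% ± 0.114 with DM-aKG and 88.6% ± 0.2804 in controls (SD, n = 3 each), with a difference of -0.0785 points (exact p = 0.8). Between these, 565 positions at 5000 to under 10000 bases differed by 0.637 points (exact p = 0.3). The far class minus the near class was -0.816 points with DM-aKG and -2.31 points in controls on average, a difference of 1.496 points (exact p = 0.1). In the rest of chromosome 17 it was 1.40 points with DM-aKG and 1.15 points in controls, a difference of 0.251 points (exact p = 0.6).

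The positions near starts were also where the region departed from its chromosome. Within 5000 bases of a start the rest of chromosome 17 differed by 0.929 points between DM-aKG and control (exact p = 0.1). The region minus the rest in that class was 1.34, 0.896 and 0.860 points with DM-aKG, against 2.22, 2.17 and 1.72 points in controls. The groups did not overlap, and the difference was -1.01 points (exact p = 0.1), between -1.16 and -0.918 points when any 1 library was left out. At 10000 bases or more the rest of the chromosome differed by 1.18 points between DM-aKG and control. The level itself was lowest next to starts, at 83.2% under 500 bases and 85.5% at 500 to under 1000 bases over the 6 libraries, against 89.8% at 2000 to under 5000 bases. The rest of chromosome 17 was also lowest there, at 85.0% under 500 bases, against 88.0% at 2000 to under 5000 bases.

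**Figure D4:**
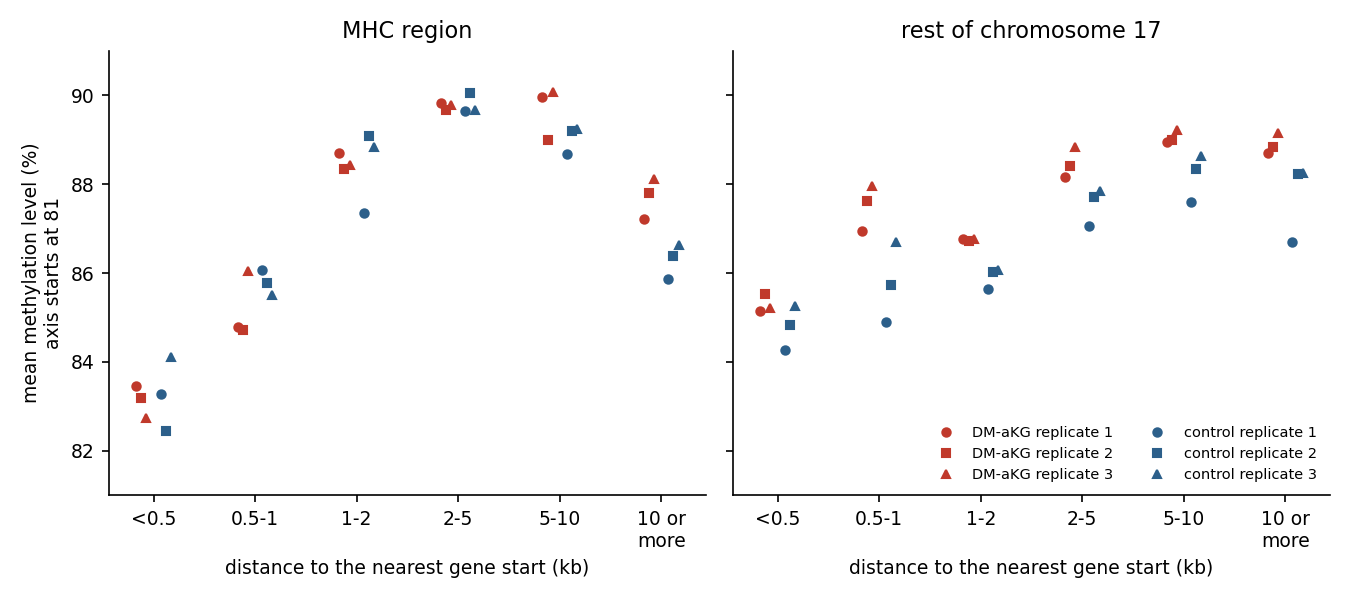
Mean methylation level (%, vertical axis, starting at 81) by distance (kb) from the nearest annotated gene start, in the region and in the rest of chromosome 17. Each symbol is 1 library, DM-aKG in red left of control in blue; in the region the groups separate at 10000 bases or more (87.2% to 88.1% with DM-aKG, 85.9% to 86.6% in controls) and lie together closer to starts.

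No window of the region passed an adjusted p of 0.05 in limma, and none of the 6068 windows of the usable rows did (0.0%). At an unadjusted p under 0.05 the region had 0 windows, against 7.81% of all windows higher and 0.445% lower with DM-aKG. The smallest adjusted p in the region was 0.576 (limma, Benjamini-Hochberg). Groups did not overlap in 3 of 32 windows, all higher with DM-aKG (9.38%), where 15.0% of all windows were of that kind and 1.63% were lower without overlap. The differences were above 0 in 23 of 32 windows (71.9%, against 75.6% of all), 14 of them among the 18 windows of the class I part, with a median of 0.478 points in the region and 0.981 points over all windows.

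The window with the largest difference started at 35400000, in the Q cluster of class I genes, with 89.2%, 92.6% and 92.3% with DM-aKG, against 86.4%, 86.4% and 92.1% in controls. Control replicate 3 stood with the treated libraries there, so that the groups overlapped, and the difference was 3.03 ± 4.33 points (95% interval, limma). The window at 36700000 differed by 2.83 ± 4.14 points. In the other direction the window at 36900000 differed by -1.10 ± 2.44 points and the window at 33900000 by -0.534 ± 2.15 points. The 3 windows without overlap started at 34600000, where Tnxb lies (1.55 points), at 34800000 (1.15 points) and at 37100000 (2.11 points).

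Of the 218 genes that the region's annotation holds, 110 had at least 3 complete positions from 1000 bases before to 1000 bases after their span, and no gene passed an adjusted p of 0.05 in limma (0.0108% of all 9261 measured genes did). An unadjusted p under 0.05 was reached by 2 genes, H2-Q1 and Gm6034, both higher with DM-aKG, against 5.68% of all genes higher and 1.19% lower. Groups did not overlap in 6 genes higher with DM-aKG (5.46%, against 11.2% of all genes) and in 3 lower (2.73%, against 2.52%). The median difference over the 110 was -0.0376 points and 53 of them (48.2%) were above 0. Over all measured genes the median was 0.733 points and 66.4% were above 0. In 103 of the 110 genes the difference was within 5 points. By part, 25 of 42 class I part genes, 11 of 24 class II part genes and 17 of 44 class III part genes were above 0, with medians of 0.544, -0.169 and -0.295 points.

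Spans of the annotation do not separate exons from introns or give UTRs, so each gene value below is a mean over its whole span. Many class I genes, some class II genes, C4a and C4b, and Hspa1a and Hspa1b have close copies. How reads that match more than 1 copy were treated is not stated in the labels. Genes whose spans overlap, with these flanks counted, share positions. No list member passed the adjusted threshold.

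**Figure D5:**
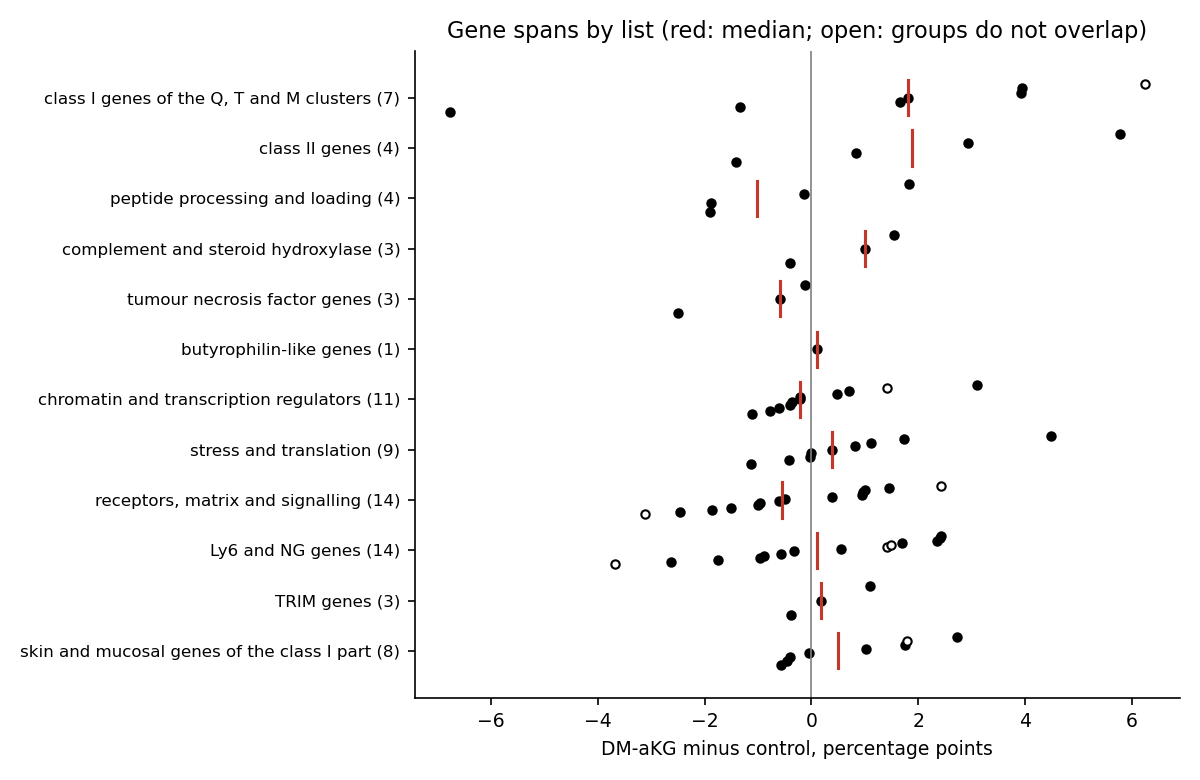
DM-aKG minus control difference in methylation (percentage points, horizontal axis) of each measured gene, by gene list (vertical axis), with the median of each list as a red bar. Points are single genes, open where the groups do not overlap, and fall on both sides of 0 in most lists, within about 7 points of it.

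The genes that present antigen on class I molecules were largely out of view. Of the classical class I genes, whose products present peptides to CD8 T cells, H2-K1 had 1 listed position and no complete one. H2-D1 had 2 complete positions, 1 base apart, with means of 61%, 61.5% and 74% with DM-aKG, against 62%, 59% and 48% in controls, and the groups overlapped. Of the class I genes of the Q, T and M clusters, which encode nonclassical relatives, 7 of 25 were measured and 14 had no listed position. Of these 7, 5 were higher with DM-aKG and 2 lower, with a median of 1.81 points.

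H2-Q1 (chr17:35320525-35328142) stood lowest of those 7 and had one of the 2 smallest p-values of the region. Its 4 complete positions, within 90 bases, averaged 69.8%, 69.0% and 71.8% with DM-aKG, against 65.8%, 64.5% and 61.5% in controls. The groups did not overlap, and the difference was 6.25 ± 3.57 points (95% interval; adjusted p = 0.717, limma), from 5.04 to 7.17 points when any 1 library was left out. H2-Q6 (chr17:35424850-35430055), with 15 positions, averaged 93.4% ± 1.24 with DM-aKG and 89.49% ± 2.97 in controls (SD, n = 3 each), and control replicate 3 overlapped the treated libraries. H2-M5 (chr17:36983785-36997955) averaged 74.2% ± 1.94 with DM-aKG and 75.6% ± 2.52 in controls (SD, n = 3 each). H2-T10 had 22 listed positions but only 2 complete ones.

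Of 10 class II genes 4 were measured, and 3 of these were higher with DM-aKG, with a median of 1.88 points. H2-Eb1 (chr17:34305867-34316674), the beta chain of the presenting molecule H2-E, had 82.8%, 80.5% and 86.7% with DM-aKG, against 74.9%, 83.8% and 82.5% in controls, where control replicate 1 was the low library, and its difference of 2.93 points was 0.183 points without it. The alpha chain gene of H2-E, H2-Ea, is annotated as a transcribed pseudogene and had no listed position. H2-Ab1, the beta chain of H2-A, had 1 complete position of 7 listed, with 68%, 65% and 85% with DM-aKG, against 73%, 78% and 94% in controls. H2-Aa, the alpha chain of H2-A, had none listed. H2-DMa and H2-DMb2 encode chains of H2-DM, which loads peptides onto class II molecules. H2-DMb2 (chr17:34143229-34151553) averaged 74.3% ± 2.40 with DM-aKG and 68.6% ± 6.55 in controls (SD, n = 3 each) over 3 positions, and its difference of 5.78 points became 2.0 points without control replicate 1. H2-DMa (chr17:34119693-34139101) averaged 83.6% ± 1.18 with DM-aKG and 82.8% ± 2.66 in controls (SD, n = 3 each). H2-Oa, the alpha chain of H2-O, which restrains H2-DM, averaged 85.4% ± 4.54 with DM-aKG and 86.8% ± 3.33 in controls (SD, n = 3 each), and BC051537 shares all 22 of its positions.

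Of the 5 genes that make and load class I peptides 4 were measured, at 88.2% to 93.5% over the 6 libraries, where the median measured gene of the region had 88.9%, and 1 was higher with DM-aKG, with a median of -1.01 points. Tap1 and Tap2 encode the peptide transporter of the endoplasmic reticulum. Tap1 (chr17:34187556-34197225) averaged 88.1% ± 1.41 with DM-aKG and 88.2% ± 2.85 in controls, and Tap2 (chr17:34204479-34216321) averaged 92.6% ± 1.40 with DM-aKG and 94.5% ± 0.686 in controls (SD, n = 3 each). Tapbp, whose product tapasin bridges the transporter and class I molecules, averaged 92.7% ± 1.75 with DM-aKG and 90.9% ± 2.76 in controls (SD, n = 3 each), and shares 11 of its 14 positions with Zbtb22. Of the butyrophilin-like genes, which act on T cells of the gut epithelium in the mouse, 1 was measured. Btnl1 (chr17:34377123-34386162) had 86.7%, 89.0% and 87.3% with DM-aKG, against 72.3%, 94.3% and 96.0% in controls over 3 positions, with control replicate 1 below and the other controls above the treated libraries.

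In the class III part, 3 of 5 complement and steroid hydroxylase genes were measured, 2 of them higher with DM-aKG, with a median of 1.01 points. The complement gene C4b (chr17:34728139-34743902) was among the less methylated genes, with 73.3% ± 4.10 with DM-aKG and 73.7% ± 1.04 in controls, while its copy C4a (chr17:34809092-34823460) had 85.6% ± 1.55 with DM-aKG and 84.6% ± 2.21 in controls (SD, n = 3 each). Cyp21a1, the steroid 21-hydroxylase of the adrenal, averaged 87.2% ± 1.02 with DM-aKG and 85.7% ± 0.398 in controls (SD, n = 3 each). Of the 7 tumour necrosis factor genes and neighbours 3 were measured, and none was above 0, with a median of -0.583 points. They were Ltb, Lta and Nfkbil1, and Nfkbil1 (chr17:35220175-35236481) averaged 90.7% ± 1.45 with DM-aKG and 91.3% ± 1.33 in controls (SD, n = 3 each). Tnf, the tumour necrosis factor gene, had 2 complete positions, with means of 100%, 91.5% and 88.5% with DM-aKG, against 96.0%, 94.0% and 93.0% in controls. Aif1, a gene of macrophages, had 2 complete positions close to 50% in every library, with 47.7% ± 2.02 with DM-aKG and 49.8% ± 1.26 in controls (SD, n = 3 each).

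Of 15 chromatin and transcription regulators 11 were measured, 4 of them higher with DM-aKG, with a median of -0.215 points. Ehmt2 (chr17:34898463-34914073), which encodes the histone H3 lysine 9 methyltransferase G9a, had 92.5%, 92.3% and 92.4% over 71 positions with DM-aKG, against 90.2%, 91.5% and 91.3% in controls. The treated libraries were nearly equal and lay above all controls, by 1.41 ± 2.20 points (95% interval; adjusted p = 0.738, limma). Its neighbour Zbtb12, a zinc finger gene, averaged 91.1% ± 0.809 with DM-aKG and 91.3% ± 0.554 in controls, and Pbx2, a homeodomain gene, averaged 82.2% ± 0.744 with DM-aKG and 83.3% ± 0.685 in controls (SD, n = 3 each).

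Of 11 stress and translation genes 9 were measured, 5 of them higher with DM-aKG, with a median of 0.382 points. Hspa1a (chr17:34969359-34972156), an inducible heat shock protein 70 gene, had 80.6%, 78.4% and 75.0% over 9 positions with DM-aKG, against 71.0%, 75.7% and 73.9% in controls. DM-aKG replicate 3 overlapped the controls, and the difference was 4.48 ± 4.58 points (95% interval; adjusted p = 0.717, limma). Skiv2l, an RNA helicase of the exosome pathway, averaged 89.9% ± 1.04 with DM-aKG and 88.1% ± 0.773 in controls, and Vars, the valyl-tRNA synthetase, averaged 89.6% ± 0.692 with DM-aKG and 90.7% ± 1.16 in controls (SD, n = 3 each).

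Of 17 receptor, matrix and signalling genes 14 were measured, 6 of them higher with DM-aKG, with a median of -0.557 points. Tnxb (chr17:34660453-34719815), which encodes the matrix protein tenascin X, had 84.5%, 82.7% and 84.4% over 94 positions with DM-aKG, against 80.3%, 81.5% and 82.5% in controls. The groups did not overlap, with a difference of 2.43 ± 2.63 points (95% interval; adjusted p = 0.724, limma). Slc39a7 (chr17:34028266-34031690), a zinc transporter of the secretory pathway, lay lower in the treated libraries without overlap, at 86%, 86.1% and 80.9% with DM-aKG, against 86.3%, 88.8% and 87.2% in controls. Its difference of -3.11 points was -1.40 points without DM-aKG replicate 3. Col11a2, a cartilage collagen gene with 99 positions, averaged 81.4% ± 1.38 with DM-aKG and 79.97% ± 0.703 in controls, and Notch4 (chr17:34564286-34588543), an endothelial Notch receptor gene, averaged 87.4% ± 1.38 with DM-aKG and 88.9% ± 2.17 in controls (SD, n = 3 each). Gabbr1 averaged 83.0% ± 3.41 with DM-aKG and 82.1% ± 3.89 in controls (SD, n = 3 each).

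Of the 21 Ly6 and NG genes, a mixed group of small class III genes, 14 were measured and 7 were higher with DM-aKG, with a median of 0.111 points. Neu1 (chr17:34931253-34937297), a lysosomal sialidase gene, had 87.7%, 87.0% and 87.1% over 35 positions with DM-aKG, against 95.1%, 89.9% and 87.9% in controls. All treated libraries lay below all controls, and the difference of -3.69 ± 4.63 points (95% interval) was -1.62 points without control replicate 1. Abhd16a, a phospholipase gene, averaged 96.6% ± 0.649 with DM-aKG and 95.1% ± 0.135 in controls (SD, n = 3 each), again without overlap. Ddah2, a gene of methylarginine breakdown, averaged 85.6% ± 1.74 with DM-aKG and 83.2% ± 1.17 in controls, and Prrc2a averaged 90.96% ± 0.550 with DM-aKG and 91.5% ± 0.735 in controls (SD, n = 3 each).

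In the class I part, 3 of 10 TRIM genes were measured, 2 of them higher with DM-aKG, with a median of 0.175 points. Trim39, a ubiquitin ligase gene, averaged 94.5% ± 0.669 with DM-aKG and 93.4% ± 0.904 in controls, and Trim10, a gene of red cell maturation, averaged 88.4% ± 1.58 with DM-aKG and 88.8% ± 0.592 in controls (SD, n = 3 each). Of 13 skin and mucosal genes 8 were measured, 4 of them higher with DM-aKG, with a median of 0.492 points. Prr3 averaged 97.5% ± 0.545 with DM-aKG and 95.7% ± 1.39 in controls without overlap, Mucl3, a mucin-like gene, averaged 83.4% ± 4.61 with DM-aKG and 80.7% ± 3.44 in controls, and Cchcr1 and Cdsn, with 38 positions each, differed by -0.0439 and -0.579 points (SD, n = 3 each).

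The remaining genes without overlap belonged to none of the lists. Gm6034 (chr17:36042961-36058645), a predicted gene of the class I part, had 94.1%, 86% and 87.3% over 8 positions with DM-aKG, against 81.5%, 84.5% and 80.1% in controls, a difference of 7.08 ± 5.87 points (95% interval; adjusted p = 0.717, limma). It was 4.58 points without DM-aKG replicate 1 and -5.52 points with each 0 taken as a true level. Vps52 (chr17:33955779-33967038), a gene of the complex that tethers vesicles at the Golgi, had 90.7%, 89.6% and 91.2% over 39 positions with DM-aKG, against 92.4%, 93.1% and 92.2% in controls, and lay lower in every treated library.

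At single positions the region resembled its background. None of the 2718 complete positions passed an adjusted p of 0.05 in limma, and none of 272327 did (0.0%). On log2 odds 2 positions passed (0.0736%, against 0.149% of all), and with each 0 taken as a true level 13 of 3859 did (0.337%, against 0.61% of all). At an unadjusted p under 0.05 there were 91 positions higher with DM-aKG (3.35%, against 3.54% of all) and 70 lower (2.58%, against 1.89%). Groups did not overlap in 108 positions higher with DM-aKG (3.97%, against 4.63% of all) and in 78 lower (2.87%, against 2.5%). The median 95% interval of a position's difference was ± 9.96 points (limma).

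The position with the largest difference among those without overlap lay inside Tnxb. At position 34672743 of chromosome 17 the level was 100%, 93% and 100% with DM-aKG, against 67%, 73% and 50% in controls, a difference of 34.3 points (adjusted p = 0.686, limma). Its neighbours at 34672727 and 34672729 differed by 28 and 25.7 points. Not all bases beside them shared this. The adjacent positions 34672726 and 34672728 averaged 51.0% and 42.0% over the DM-aKG libraries with a value, against 55.7% and 44.0% over the controls. Position 34672741 averaged 89.3% with DM-aKG and 87.7% in controls, and 34672746 averaged 81.3% with DM-aKG and 90.0% in controls. Over the 5 complete positions of this 17-base run, chosen after the values were seen, the mean was 88.4%, 88.8% and 91.2% with DM-aKG, against 66.8%, 69.4% and 63.4% in controls. The 6 other listed positions within 60 bases lacked a value in at least 1 library and are not in that mean. At position 33932857, inside Rgl2, a gene of Ras signalling, all 3 DM-aKG libraries had 100%, against 89%, 67% and 43% in controls, and the 3 complete positions around it averaged 90.3% ± 7.51 with DM-aKG and 81.4% ± 12.0 in controls (SD, n = 3 each), with overlap.

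In the other direction, position 34094525, inside H2-Oa and BC051537, had 50%, 80% and 67% with DM-aKG, against 100%, 100% and 90% in controls. Position 34094514, close to it, differed by -28.3 points. The positions adjacent to these did not share this. Position 34094524 averaged 95.3% with DM-aKG and 92.7% in controls, and 34094513 averaged 82.0% with DM-aKG and 69.3% in controls. The 9 complete positions around 34094514 and 34094525 averaged 83.3% ± 6.76 with DM-aKG and 87.6% ± 5.31 in controls (SD, n = 3 each), with overlap. Position 35551711 of the Cdsn span had 67%, 44% and 86% with DM-aKG, against 100%, 100% and 90% in controls. Position 36069710, 10400 bases from the class I gene H2-Bl, had 54%, 62% and 47% with DM-aKG, against 100%, 87% and 67% in controls. The adjacent listed position went the other way. It had 90% and 70% in DM-aKG replicates 1 and 3, no value in DM-aKG replicate 2, and 43%, 54% and 58% in controls. The least methylated complete positions were 35514598 at Tcf19, a gene of cell growth, with a mean of 44.2% over the 6 libraries, 34594592 at Pbx2 with 46.5% and 35175168 at Aif1 with 46.5%.

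Whether a position had a value at all was the remaining readout. The region's positions had a value in 85.9%, 84.9% and 85.2% of cases with DM-aKG, against 84.1%, 88.0% and 88.9% in controls, a difference of -1.68 points (exact p = 0.4), between -3.13 and -0.743 points when any 1 library was left out. Control replicate 1 was the lowest of the 6 and the other controls were the highest. In the class I part the difference was -2.98 points (exact p = 0.1). In 7 positions (0.181%) all DM-aKG libraries and no control had a value, and in 15 (0.389%) all controls and no DM-aKG library did, against 0.334% and 0.432% in the rest of chromosome 17. Since a missing value can be a level under 40% or no coverage, these cannot be told apart.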

How the data were processed

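RRBS was done on 3 DM-aKG and 3 control libraries. The authors deposited methylation of each cytosine position as a percent, in whole numbers; the submitters' processing notes name mm10, CASAVA 1.8 and Novoalign 3.08.02, and which program called methylation is not given in the sources used here. No coverage is given, so depth and intervals from reads are unknown and no coverage minimum could be set. From row 390209 on, control replicates 1 and 2 correlated at -0.00433 to -0.00137 with the other libraries, and those rows were not used. The start column gave a C or G of a CG in 99.9% of 4491 promoter positions of GRCm38.p6 when counted from 1.

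Gene spans (protein-coding, lncRNA and transcribed pseudogenes, RefSeq GRCm38.p6) with 1000 flanking bases and at least 3 complete positions, 100 kb windows with at least 10, and single positions were fitted across all usable rows on untransformed percents with limma 3.58.1 (R 4.3.3), with no block for replicates and p-values adjusted by Benjamini-Hochberg (threshold 0.05). Library means were compared by exact two-sided permutation over 20 assignments and contrasts between parts by sign flips over 64 assignments. The fits were tested on simulated data. The region, lists and tests were chosen with earlier results of these data known. Named genes are, per list, the 2 with the smallest p and the 2 with the most positions, 10 chosen genes where measured, and the 5 per direction with the largest difference without overlap; named positions are the 4 per direction with the largest difference without overlap and the 3 lowest, and named windows the 2 at each extreme. Windows and genes without overlap, H2-T10, Lta, H2-Oa's run and the Tnxb run were added after their values were seen. Alternatives were log2 odds, equalised library means, each 0 as a level, other minimums, flanks and windows, averaged neighbours, a replicate block and leaving out each library.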

Additional observations from a re-analysis of the deposited data

How the results depend on the processing

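The choice that turned most values was the reading of a 0. When every 0 was taken as a true level, the DM-aKG minus control difference was -1.304 points in the region, -0.1096 in the class II part, -1.071 in the class III part and -2.284 in the class I part. Class II minus class III was then 1.265, class I minus class III 0.8578, class I minus class II -0.4075 and the level of the region minus the rest -0.2591 points, and 13 of 3859 positions (0.337%) passed the threshold, against 0.61% of all. Gene differences became 5.014 at Vps52, -0.8811 at Col11a2, 1.846 at H2-Oa, -1.44 at H2-DMa, -33.29 at Btnl1, -4.022 at C4a, -0.2708 at Ehmt2, -4.696 at Ddah2, -10.45 at Abhd16a, 3.458 at Nfkbil1, -7.493 at H2-Q6, 0.155 at Cdsn, -5.521 at Gm6034, -6.929 at Trim39, 0.1905 at H2-M5 and -2.659 at Gabbr1. Averaged over every position with a value, class III differed by -0.02844, class II minus class III was 0.0319 and class I minus class III 0.4897 points. With adjacent positions averaged, class I minus class III was 0.4196, Zbtb12 differed by 0.09091 and Trim10 by 0.2941 points. Over 10 kb bins the class II part differed by -0.3856, class II minus class III was 0.2375 and class I minus class II -0.4345 points. On log2 odds 2 of 2718 positions (0.0736%) passed, against 0.149% of all, inside Prrc2a (96%, 96% and 95% with DM-aKG, against 100% in each control) and Psors1c2 (100% in each DM-aKG library, against 91%, 83% and 88%), both at an adjusted p of 0.0452 (limma), and Btnl1 was -0.4197 and Cchcr1 0.01935 on that scale. With library means equalised, H2-DMa was -0.2172, Btnl1 -0.9395, C4a -0.04016 and Gabbr1 -0.108. With a flank of 2000 bases Tapbp was -0.119. For these reversals the cause was not tested.

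Leaving out 1 library at a time gave -0.2363 to 0.4471 points in the class II part, -0.01227 to 0.2134 for the level of the region minus the rest over all libraries, -0.6765 to -0.2843 for the DM-aKG minus control difference in region minus rest, and -0.2294 to 0.04767 within 5000 bases of a start. Genes that crossed 0 ranged from -3.333 to 1.106 at H2-Oa, -0.7 to 1.617 at H2-DMa, -1.778 to 0.8175 at Tap1, -7.5 to 4.333 at Btnl1, -1.583 to 1.967 at C4b, -0.2292 to 1.896 at C4a, -0.6412 to 0.1638 at Zbtb12, -1.298 to 0.2321 at Nfkbil1, -0.6754 to 1.193 at Cchcr1, -1.732 to 0.307 at Cdsn, -1.247 to 0.3046 at Trim10 and -0.7701 to 3.178 at Gabbr1. Without control replicate 1, genes that kept their sign but moved by over 1.5 times were Tapbp at 3.417, H2-Oa at -3.333, H2-DMb2 at 2.0, Tap1 at -1.778, H2-Eb1 at 0.1833, Notch4 at -0.7188, Neu1 at -1.624, Vars at -0.6897, Prrc2a at -0.2338, Nfkbil1 at -1.298, Cdsn at -1.732, Mucl3 at 4.1, Prr3 at 1.0, Trim39 at 0.7024, H2-M5 at -2.778 and Gabbr1 at 3.178 points. The region differed by 0.3722 to 0.639 and the class I part by 0.6853 to 1.25 points. Libraries of the same number did not deviate together (r = 0.0674, -0.0273 and 0.0332). With a replicate block the region's difference was 0.549 points (exact p = 0.25, the smallest that 3 pairs allow), and 0 windows, 0 genes and 0 positions of the region passed. The absence of coverage limits every position.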
